A study of Saccharomyces cerevisiae with 24 samples.

Results

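The 31 genes described here build, maintain or equip the peroxisomes of budding yeast, out of 5449 genes measured. They were taken from a fixed list of gene symbols without a cut on expression values, though earlier results of these data were known. The list holds 24 peroxins (the PEX genes), the inheritance factors INP1 and INP2, and the peroxisomal proteins ANT1, PXA2, PCS60, LPX1 and MDH3, which lie outside core β-oxidation. All 31 had a probe set naming 1 gene, and 0 of these probe sets are shared between near-identical genes in the array's design. Saccharomyces cerevisiae strains were grown with oxygen in glucose-limited bioreactors (10 g/L glucose, a dilution rate of 0.1 per hour, 30 °C, pH 5.0) and sampled at steady state, and total RNA was hybridised to Affymetrix arrays, 1 array per sample. The tested strains lacked SIP1 (sip1), SIP2 (sip2), GAL83 (gal83), SIP1 and SIP2 (sip1 sip2), SIP1 and GAL83 (sip1 gal83), SIP2 and GAL83 (sip2 gal83), or all 3 genes (the triple strain, sip1 sip2 gal83), and the reference strain is labelled wild type. Each of the 8 strains has 3 biological replicates, and the labels name no parent strain, marker or further allele. Snf1, the AMP-activated protein kinase of yeast, carries 1 of 3 alternative β-subunits, encoded by these genes. The strains therefore show what the peroxisomal genes do when each subunit, or every subunit, is missing.

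Peroxisomes are membrane-bound organelles that hold the fatty acid β-oxidation of yeast and part of the glyoxylate cycle. Enzymes of the matrix are made in the cytosol, recognised by the receptors Pex5 and Pex7 through targeting signals, docked on a membrane complex, imported, and released when the receptor is ubiquitinated and pulled back out by an ATPase. Membrane proteins enter through Pex3 and Pex19, and further peroxins shape, divide and position the organelle. In yeast, peroxisomes are few on glucose and multiply on oleate, where the factors Oaf1, Pip2 and Adr1 activate many peroxisomal genes, and Snf1 activity is known to be needed for growth on oleate.

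Values are deposited log2 signals, and a difference of 1 is a doubling. Changes are strain minus reference unless another pair is named, ± the standard error (SE) of 1 limma model of the 24 arrays (n = 3 in each strain), and calls were made where the Benjamini-Hochberg adjusted p over all genes was under 0.05. Array medians ran from 10.90 to 11.07. The deleted genes read near 2, the low end of the scale, in their deletion strains, with 2 exceptions. The library labelled sip1 gal83 replicate 2 gave 9.72 for GAL83, and the library labelled sip1 sip2 replicate 3 gave 6.0 for SIP2. A further library, sip2 gal83 replicate 1, lay farther from its strain's median array than any other. Its mean distance was 0.196 over the 31 genes and 0.261 over all genes. The next highest distances were 0.131 (reference replicate 3) and 0.099 (gal83 replicate 3). The 2 exceptions and sip2 gal83 replicate 1 are the 3 doubted arrays below. The called results of the sip1 gal83 and sip2 gal83 strains are given with and without these 3. Reference replicate 3, which is not among them, was the array farthest from its strain's mean for 20 of the 31 genes. It enters every comparison with the reference.

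Among the 31 genes, 23 differed among the 8 strains by the moderated F test (74.2%), beside 71.4% of all genes tested, and that share is near the background. The share of members called lower stood above the background share in the strains that lack GAL83 with a second subunit, as follows. In the triple strain 14 of the 31 genes fell (45.2%, against 23.5% of all genes) and 1 rose (3.23%, against 14.9%). In sip2 gal83 12 fell (38.7%, against 26.4%) and 0 rose (against 10.8% of all genes), and in sip1 gal83 7 fell (22.6%, against 7.3%) and 0 rose (against 3.6%). In the single deletion strains 11 genes fell in gal83 (35.5%, against 30.6%) and 0 rose (against 10.6%). In sip2 11 fell (35.5%, against 32.1%) and 2 rose (6.45%, against 8.55%), and in sip1 9 fell (29%, against 29.1%) and 3 rose (9.68%, against 10.3%). In sip1 sip2, which keeps GAL83, limma called 0 of the 31 (against 0.257% of all genes), with 1 gene, PEX7, at an unadjusted p under 0.05, and 0 in every alternative run. All 7 comparisons share the same reference arrays. No list test was made, and the median change over the 31 genes was -0.21 in the triple strain beside -0.04 over all genes, -0.14 beside -0.07 in sip2 gal83, -0.14 beside -0.01 in sip1 gal83, -0.18 beside -0.10 in gal83, -0.16 beside -0.12 in sip2, -0.12 beside -0.09 in sip1 and 0.03 beside -0.02 in sip1 sip2. The scaling moved the split. After subtracting array medians 8 fell (25.8%, against 16.9%) and 2 rose (6.45%, against 21.9%) in the triple strain, where each second percentage is that of all genes under the same setting. In sip2 gal83 8 fell (25.8%, against 18%) and 2 rose (6.45%, against 21.7%), in sip1 gal83 6 fell (19.4%, against 6.06%) and 0 rose (0%, against 4.2%) and in gal83 8 fell (25.8%, against 18.3%) and 3 rose (9.68%, against 23.2%). In sip2 4 fell (12.9%, against 18.4%) and 2 rose (6.45%, against 22.9%), and in sip1 4 fell (12.9%, against 18.8%) and 3 rose (9.68%, against 23.3%). Under this scaling the share that fell was above the background in the 4 strains without GAL83 and below it in sip2 and sip1. After quantile normalization 9 fell (29%, against 18%) and 3 rose (9.68%, against 19.6%) in the triple strain. In sip2 gal83 5 fell (16.1%, against 16%) and 3 rose (9.68%, against 19%), so the share that fell there was near the background, in sip1 gal83 7 fell (22.6%, against 5.91%) and 0 rose (0%, against 5.87%) and in gal83 8 fell (25.8%, against 17.9%) and 2 rose (6.45%, against 18.2%). In sip2 4 fell (12.9%, against 16.5%) and 2 rose (6.45%, against 18%), and in sip1 5 fell (16.1%, against 17.9%) and 5 rose (16.1%, against 20.2%). Leaving out the 3 doubted arrays, 14 of the 31 fell in the triple strain (45.2%, against 28.7%), 10 in sip2 gal83 (32.3%, against 20.5%) and 9 in sip1 gal83 (29%, against 10.4%). In gal83 15 fell (48.4%, against 36.4%), in sip2 13 (41.9%, against 38.2%) and in sip1 12 (38.7%, against 34.9%). In the same order of strains 2, 0, 0, 0, 2 and 3 rose, against 18.2%, 7.67%, 6.11%, 13.3%, 10.8% and 13.5% of all genes. Single arrays moved some counts by more than 1.5 times. Without reference replicate 3 there were 9 calls in the triple strain, 5 in sip2 gal83 and 7 in sip1, without triple-strain replicate 3 there were 9 in the triple strain, and without reference replicate 2 or sip1 gal83 replicate 3 there were 4 in sip1 gal83.

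**Figure D1:**
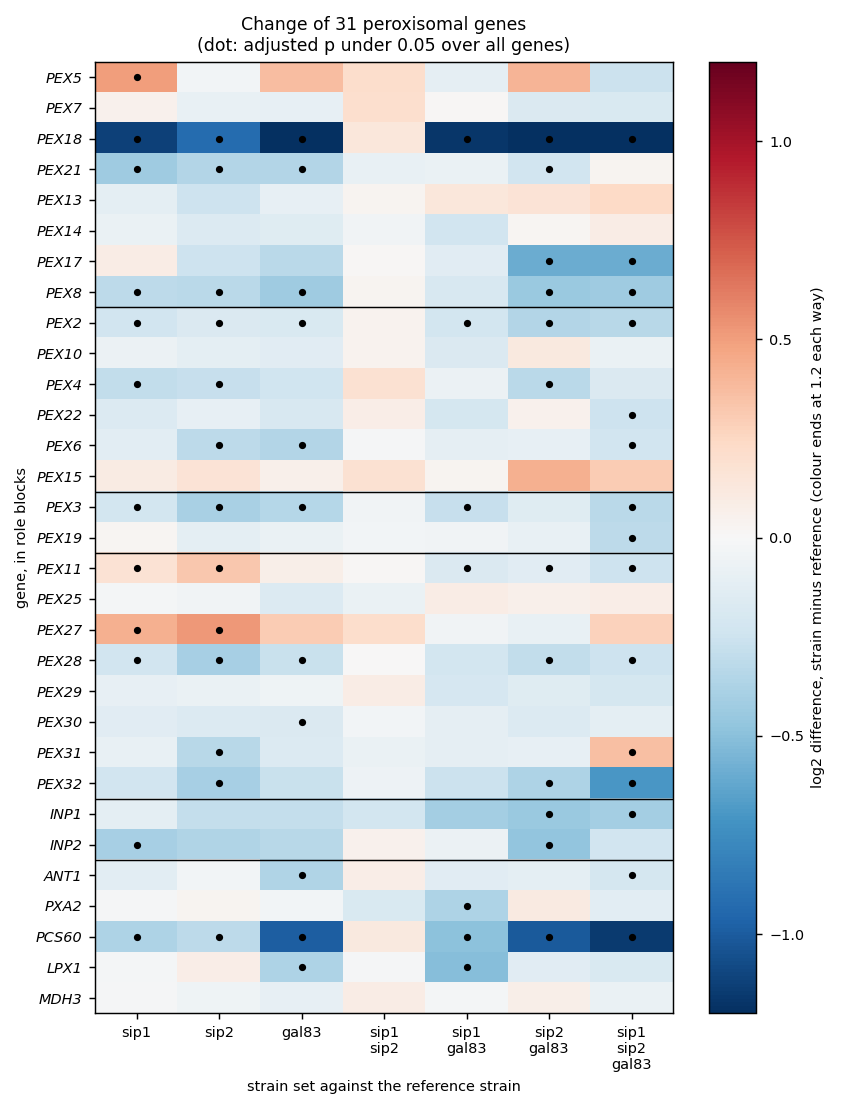
Log2 difference of the 31 genes (rows, in role blocks) in each deletion strain minus the reference strain (columns), with a dot where the adjusted p over all genes was under 0.05. PEX18, PCS60 and PEX2 were called in 6 of the 7 strains, and the sip1 sip2 column holds 0 dots.

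**Figure D2:**
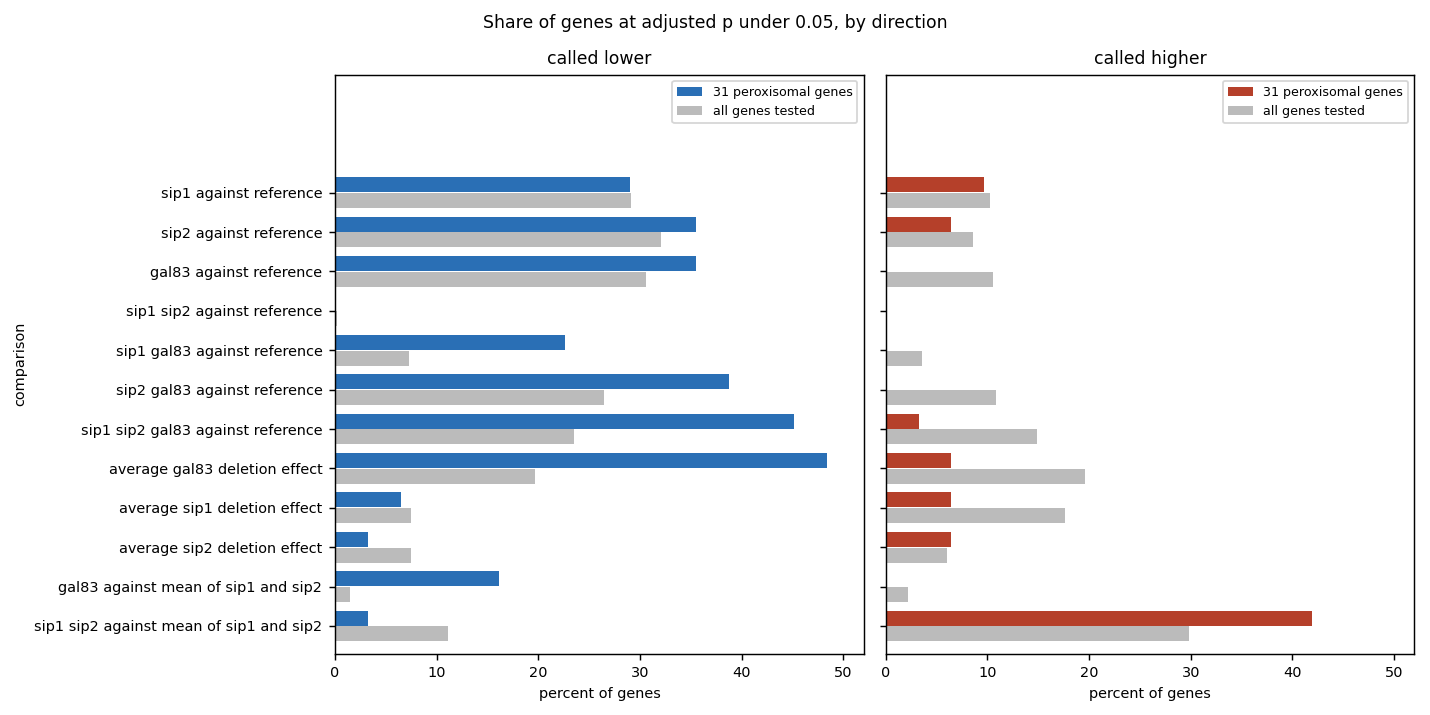
Percent of the 31 peroxisomal genes (coloured bars) and of all 5449 genes (grey bars) called lower (left) and higher (right) in each of 12 comparisons. The widest gap between the bars on the lower side is in the average gal83 deletion effect, 48.4% against 19.7%.

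PCS60, a peroxisomal AMP-binding protein known as an oxalyl-CoA synthetase, had the largest average GAL83 effect of the transporters and matrix enzymes. PCS60 read 12, 12.06 and 12.08 in the triple strain, 11.94, 12.33 and 12.29 in sip2 gal83, 12.60, 12.97 and 12.56 in sip1 gal83 and 12.25, 12.26 and 12.10 in gal83. It read 12.78, 12.80 and 12.89 in sip1, 12.82, 12.97 and 12.86 in sip2, 13.35, 13.37 and 13.23 in sip1 sip2 and 13.31, 13.15 and 13.12 in the reference strain. All arrays of every strain but sip1 sip2 lay below the reference arrays, and the arrays of the triple, sip2 gal83 and gal83 strains lay below those of sip1 and sip2 too. PCS60 changed by -1.15 ± 0.10 in the triple strain, by -1.01 ± 0.10 in sip2 gal83 and by -0.99 ± 0.10 in gal83 (adjusted p = 2.01e-07, 7.25e-06 and 2.3e-06). The falls were smaller in the other strains, -0.49 ± 0.10 in sip1 gal83, -0.37 ± 0.10 in sip1 and -0.31 ± 0.10 in sip2 (adjusted p = 0.00568, 0.00832 and 0.0214). The library labelled sip1 gal83 replicate 2, with GAL83 signal, read 12.97, and without the 3 doubted arrays the change was -0.62 (adjusted p = 1.19e-05). The PCS60 call in sip2 was lost without reference replicate 1, without sip2 replicate 1 or 3 or after subtracting array medians (adjusted p = 0.0591 to 0.189). The PCS60 call in sip1 gal83 was lost with the compared strains fitted alone (adjusted p = 0.0727). The sip2 gal83 change without the doubted arrays was -0.89 (adjusted p = 2.16e-07).

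ANT1, the adenine nucleotide carrier that supplies the peroxisome with ATP, and LPX1, a peroxisomal lipase, were both lowest in strains without GAL83, though not in the same ones. ANT1 read 11.80, 11.83 and 11.86 in the triple strain, 12.01, 11.83 and 11.91 in sip2 gal83, 11.80, 12.01 and 11.87 in sip1 gal83 and 11.59, 11.69 and 11.74 in gal83. It read 11.92, 11.88 and 11.92 in sip1, 12.03, 12.05 and 11.95 in sip2, 12.16, 12.11 and 12.09 in sip1 sip2 and 12.05, 12.03 and 12.03 in the reference strain. The gal83 arrays were the lowest of all 24. ANT1 changed by -0.36 ± 0.051 in gal83 and by -0.21 ± 0.051 in the triple strain (adjusted p = 4.39e-05 and 0.00468). The ANT1 call in the triple strain was lost after subtracting array medians (adjusted p = 0.0593). LPX1 read 12.62, 12.86 and 12.55 in sip1 gal83, 12.72, 12.72 and 13 in gal83 and 13.12, 13.08 and 13.36 in the reference strain. Both deletion strains lay below the reference arrays and overlapped each other. LPX1 changed by -0.51 ± 0.097 in sip1 gal83 and by -0.37 ± 0.097 in gal83 (adjusted p = 0.00287 and 0.00542). Both LPX1 calls ended with the compared strains fitted alone (adjusted p = 0.053 and 0.0545). Leaving out the 3 doubted arrays, LPX1 stood at -0.60 in sip1 gal83 (adjusted p = 0.00108). In the triple strain LPX1 read 13.08, 13.07 and 12.87, overlapping the reference, and stood at -0.18 ± 0.097 (adjusted p = 0.156).

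The other proteins of this class moved less. PXA2, part of the ABC transporter that brings long-chain acyl-CoA into the peroxisome, read 11.84, 11.83 and 11.70 in sip1 gal83 and 12.18, 12.23 and 12.07 in the reference strain. It fell by 0.37 ± 0.089 there (adjusted p = 0.0133), and in the other 6 comparisons its change lay between -0.18 and 0.11 and did not pass. The PXA2 call in sip1 gal83 was lost without reference replicate 2 or without sip1 gal83 replicate 3 (adjusted p = 0.0617 and 0.0777). The value without the 3 doubted arrays was -0.39 (adjusted p = 0.00547). MDH3, the peroxisomal malate dehydrogenase, had strain means between 14 and 14.19. Its change of -0.08 ± 0.081 in the triple strain had a 95% interval of -0.25 to 0.09.

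**Figure D3:**
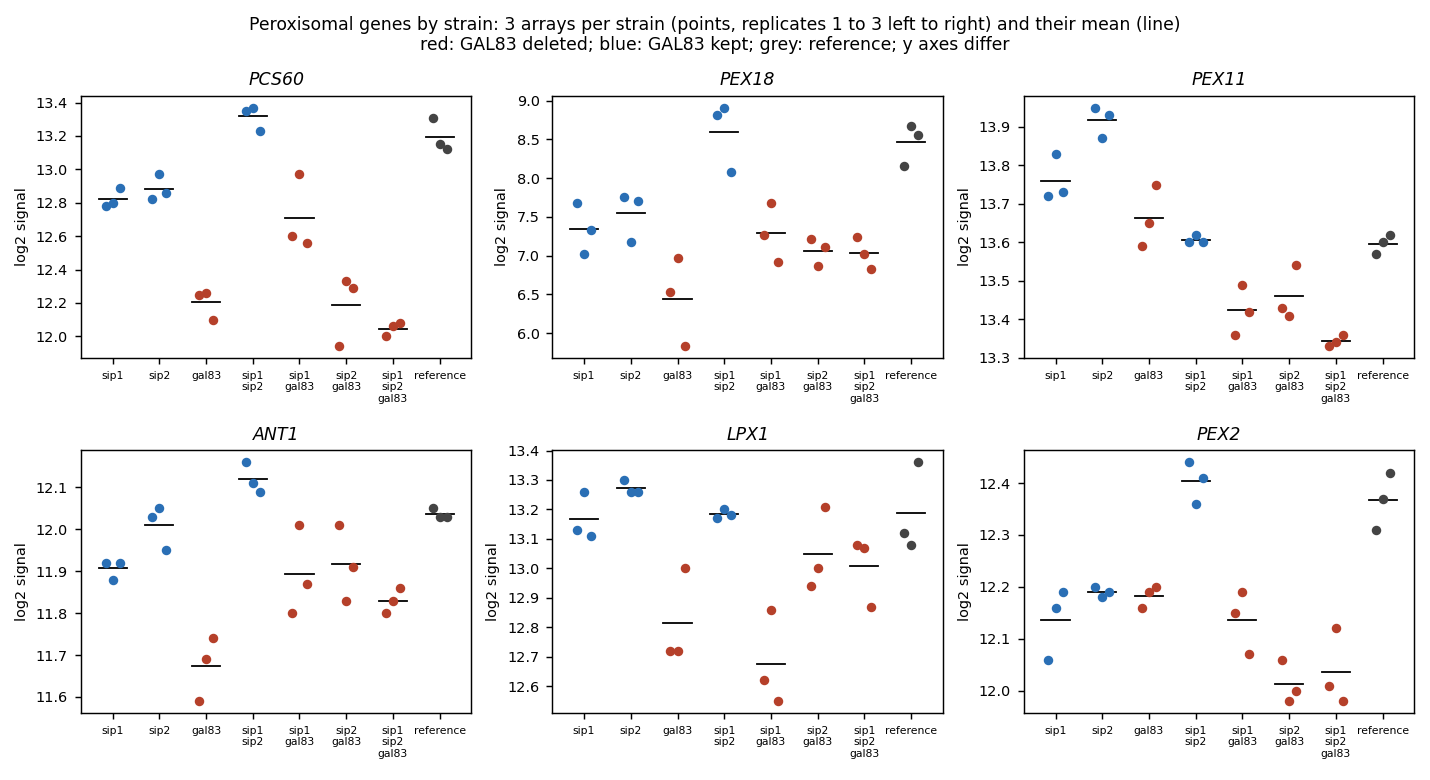
Log2 signal of PCS60, PEX18, PEX11, ANT1, LPX1 and PEX2 on every array by strain (points are the 3 replicates, lines their mean, red strains lack GAL83). PCS60 and PEX2 are lower than the reference in every strain but sip1 sip2, while PEX11 is above the reference in sip1 and sip2 and below it in the strains that lack GAL83 with a second subunit.

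Among the import receptors the largest change was in PEX18, which encodes a co-receptor that acts with Pex7 on proteins with the amino-terminal signal PTS2. PEX18 read 7.24, 7.02 and 6.83 in the triple strain, 7.21, 6.87 and 7.11 in sip2 gal83, 7.27, 7.68 and 6.92 in sip1 gal83 and 6.53, 6.97 and 5.83 in gal83. It read 7.68, 7.02 and 7.33 in sip1, 7.75, 7.18 and 7.70 in sip2, 8.81, 8.91 and 8.08 in sip1 sip2 and 8.16, 8.67 and 8.56 in the reference strain. The arrays of 6 strains lay wholly below the reference arrays, and those of sip1 sip2 overlapped them. PEX18 changed by -2.02 ± 0.28 in gal83, by -1.43 ± 0.28 in the triple strain and by -1.40 ± 0.28 in sip2 gal83 (adjusted p = 4.24e-05, 0.000755 and 0.00149). It also changed by -1.17 ± 0.28 in sip1 gal83, by -1.12 ± 0.28 in sip1 and by -0.92 ± 0.28 in sip2 (adjusted p = 0.0133, 0.00477 and 0.015). Fitted without the 3 doubted arrays, PEX18 stood at -1.37 in sip1 gal83 and -1.48 in sip2 gal83 (adjusted p = 0.00522 and 0.00209). The PEX18 call in sip2 was lost without reference replicate 2, without sip2 replicate 2 or after quantile normalization (adjusted p = 0.0589, 0.0772 and 0.292). The PEX18 call in sip1 gal83 was lost without reference replicate 2 or without sip1 gal83 replicate 3 (adjusted p = 0.0604 and 0.0844). The PEX18 probe set is among the 25% with the lowest means, as are those of PEX17, PEX4, PEX31, INP1 and INP2. The run without the lowest 25% of genes therefore did not test these 6 members.

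PEX21, the paralog of PEX18 and likewise a Pex7 co-receptor, had smaller changes than PEX18 and was called in 4 strains. PEX21 read 10.89, 11.10 and 11.04 in sip1, 11.02, 11.27 and 10.97 in sip2, 11.16, 10.99 and 11.12 in gal83 and 11.60, 11.32 and 11.40 in the reference strain. It changed by -0.43 ± 0.082 in sip1, by -0.35 ± 0.082 in sip2 and by -0.35 ± 0.082 in gal83 (adjusted p = 0.000596, 0.00243 and 0.00272). In the triple strain it read 11.49, 11.48 and 11.42 and stood at 0.03 ± 0.082 (adjusted p = 0.854). The call in sip2 gal83, -0.23 ± 0.082 (adjusted p = 0.0387), was -0.18 without the doubted arrays and ended without sip2 gal83 replicate 1 (adjusted p = 0.143) and in 8 other alternatives (adjusted p up to 0.189). The sip2 call ended with the compared strains fitted alone (adjusted p = 0.0533). PEX7, the PTS2 receptor itself, had strain means from 11.04 to 11.42 and 0 calls against the reference.

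PEX5, the receptor for the carboxy-terminal signal PTS1, was 1 of 3 members higher in sip1. It read 11.89, 11.91 and 11.84 in sip1 and 11.35, 11.28 and 11.51 in the reference strain, all 3 sip1 arrays being higher. PEX5 rose by 0.50 ± 0.16 in sip1 (adjusted p = 0.0204). The PEX5 call in sip1 was lost without reference replicate 1 or 2 or without sip1 replicate 2 (adjusted p = 0.0529, 0.071 and 0.0542). It read 11.76, 11.43 and 12.07 in gal83 and 11.96, 11.43 and 11.98 in sip2 gal83, with replicates spread as widely as the differences, and stood at 0.37 ± 0.16 and 0.41 ± 0.16 (adjusted p = 0.077 and 0.0577).

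Of the docking proteins at the membrane, PEX13 and PEX14 had 0 calls against the reference, with changes between -0.25 and 0.24 for PEX13 and between -0.23 and 0.09 for PEX14. PEX17, encoding a partner of Pex14, read 7.10, 6.98 and 6.93 in the triple strain, 6.96, 6.99 and 7.07 in sip2 gal83 and 7.39, 7.45 and 7.96 in the reference strain. It changed by -0.60 ± 0.20 in the triple strain and by -0.60 ± 0.20 in sip2 gal83 (adjusted p = 0.0262 and 0.0292). The PEX17 call in the triple strain was lost without reference replicate 3, without sip1 sip2 gal83 replicate 2 or 3 or after quantile normalization (adjusted p = 0.0648 to 0.207). The PEX17 call in sip2 gal83 was lost without reference replicate 3, without sip2 gal83 replicate 1 or 2, after quantile normalization or with the compared strains fitted alone (adjusted p = 0.0514 to 0.596). The change in PEX17 without the doubted arrays was -0.57 there (adjusted p = 0.0194). Reference replicate 3, at 7.96, stood above the other reference arrays.

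PEX8, encoding the matrix-side protein that links the docking and ubiquitin ligase complexes, was lower in 5 strains. PEX8 read 11.35, 11.25 and 11.21 in the triple strain, 11.02, 11.30 and 11.44 in sip2 gal83, 11.23, 11.23 and 11.37 in gal83, 11.42, 11.35 and 11.42 in sip1 and 11.34, 11.34 and 11.46 in sip2. It read 11.58, 11.58 and 11.39 in sip1 gal83, 11.72, 11.79 and 11.69 in sip1 sip2 and 11.65, 11.68 and 11.79 in the reference strain. The arrays of sip1 gal83 and of the 5 other strains named first lay below the reference arrays. PEX8 changed by -0.45 ± 0.082 in sip2 gal83, by -0.43 ± 0.082 in the triple strain and by -0.43 ± 0.082 in gal83 (adjusted p = 0.000687, 0.000541 and 0.000569). It stood at -0.31 ± 0.082 in sip1 and -0.32 ± 0.082 in sip2 (adjusted p = 0.00695 and 0.00446), calls that ended after subtracting array medians (adjusted p = 0.0549 and 0.0797). With the 3 doubted arrays left out, PEX8 stood at -0.34 in sip2 gal83 (adjusted p = 0.00306). The sip2 gal83 call ended with the compared strains fitted alone (adjusted p = 0.0789).

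**Figure D4:**
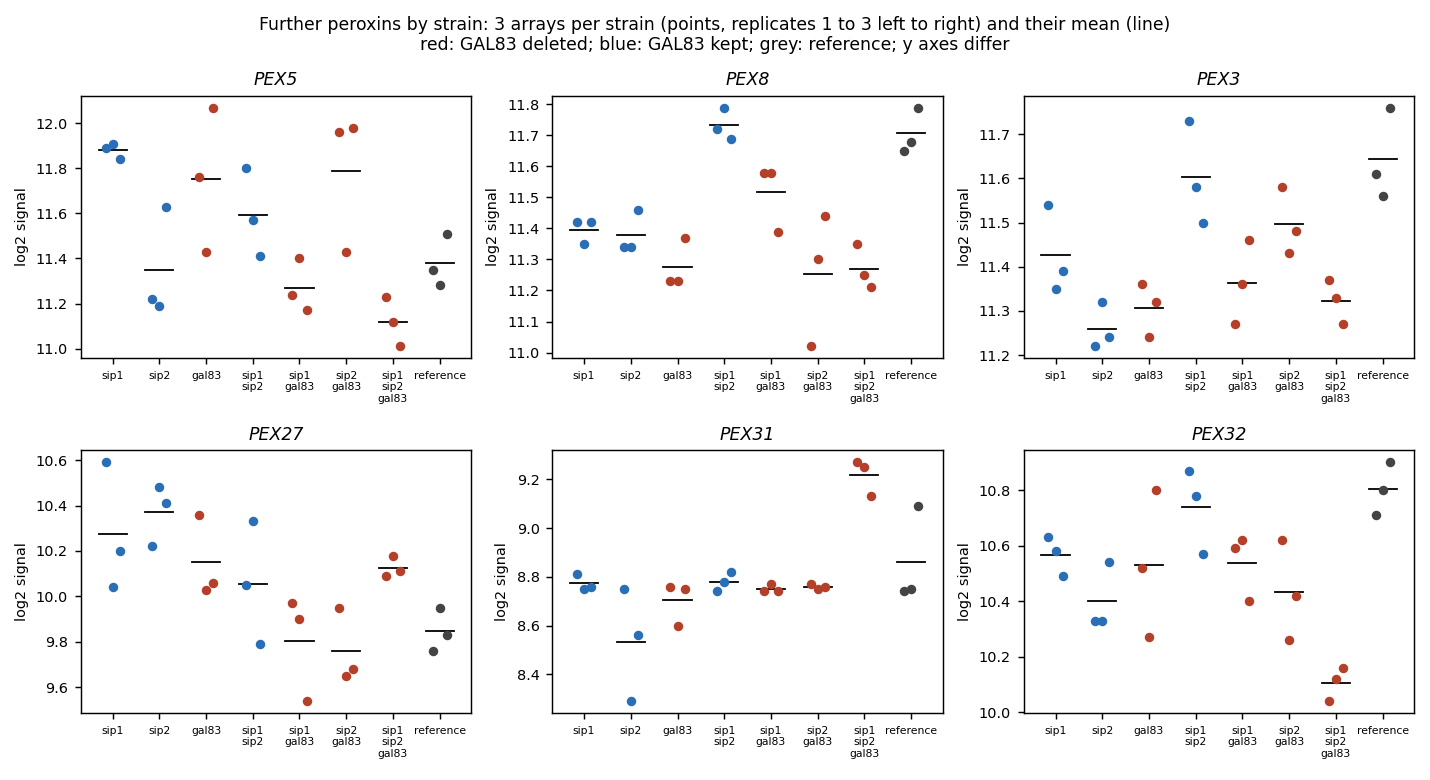
Log2 signal of PEX5, PEX8, PEX3, PEX27, PEX31 and PEX32 on every array by strain, drawn as in the plot of PCS60 and PEX18. PEX31 is highest and PEX32 lowest in the triple strain, while PEX8 and PEX3 share low values in most deletion strains and reference-like values in sip1 sip2.

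Receptor recycling involves the RING-type ubiquitin ligases Pex2 and Pex10, the conjugating enzyme Pex4 with its anchor Pex22, and the ATPase Pex6 with its anchor Pex15. PEX2 was lower in 6 strains. It read 12.01, 12.12 and 11.98 in the triple strain, 12.06, 11.98 and 12 in sip2 gal83, 12.15, 12.19 and 12.07 in sip1 gal83 and 12.16, 12.19 and 12.20 in gal83. PEX2 read 12.06, 12.16 and 12.19 in sip1, 12.20, 12.18 and 12.19 in sip2, 12.44, 12.36 and 12.41 in sip1 sip2 and 12.31, 12.37 and 12.42 in the reference strain. Only the sip1 sip2 arrays overlapped the reference. PEX2 changed by -0.35 ± 0.043 in sip2 gal83 and by -0.33 ± 0.043 in the triple strain (adjusted p = 3.9e-05 and 1.5e-05). The falls were -0.23 ± 0.043 in sip1, -0.22 ± 0.043 in sip1 gal83, -0.18 ± 0.043 in gal83 and -0.17 ± 0.043 in sip2 (adjusted p = 0.000568, 0.00306, 0.00335 and 0.00358). The all-gene medians in gal83 and sip2 were -0.10 and -0.12, and the PEX2 calls there ended after subtracting array medians (adjusted p = 0.311 and 0.572) and after quantile normalization (adjusted p = 0.0547 and 0.0613). Leaving out the 3 doubted arrays, PEX2 stood at -0.25 in sip1 gal83 and -0.37 in sip2 gal83 (adjusted p = 0.00249 and 0.000114).

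PEX6 read 10.48, 10.57 and 10.60 in gal83, 10.59, 10.53 and 10.67 in sip2, 10.76, 10.67 and 10.58 in the triple strain and 10.81, 10.84 and 11.07 in the reference strain. The reference arrays lay above all arrays of the other 3 strains, which overlapped one another. It changed by -0.35 ± 0.066 in gal83, by -0.31 ± 0.066 in sip2 and by -0.23 ± 0.066 in the triple strain (adjusted p = 0.000452, 0.00123 and 0.00973). The PEX6 call in sip2 was lost after subtracting array medians or after quantile normalization (adjusted p = 0.0559 and 0.0757). The PEX6 call in the triple strain was lost without reference replicate 3, without sip1 sip2 gal83 replicate 3, after subtracting array medians, after quantile normalization or with the compared strains fitted alone (adjusted p = 0.0513 to 0.0762). PEX4 was called lower in sip2 gal83, sip1 and sip2, at -0.32 ± 0.092, -0.30 ± 0.092 and -0.28 ± 0.092 (adjusted p = 0.0135, 0.0148 and 0.02). The PEX4 call in sip2 gal83 was lost without reference replicate 3, after quantile normalization or with the compared strains fitted alone (adjusted p = 0.0851, 0.52 and 0.154). The change in PEX4 without the doubted arrays was -0.37 there (adjusted p = 0.0142). The PEX4 call in sip1 was lost without reference replicate 3, without sip1 replicate 1, after subtracting array medians, after quantile normalization or with the compared strains fitted alone (adjusted p = 0.0523 to 0.966). The PEX4 call in sip2 was lost without reference replicate 3, without sip2 replicate 2 or 3, after subtracting array medians, after quantile normalization or with the compared strains fitted alone (adjusted p = 0.0564 to 0.538). Quantile normalization turned the sip2 value to 0.07. PEX22 fell by 0.25 ± 0.079 in the triple strain (adjusted p = 0.0181). The PEX22 call in the triple strain was lost without reference replicate 2 or 3, without sip1 sip2 gal83 replicate 2 or 3, after subtracting array medians or after quantile normalization (adjusted p = 0.0592 to 0.0976).

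PEX10 and PEX15 had 0 calls against the reference. Both read highest in the doubted library sip2 gal83 replicate 1. PEX15 read 11.70, 10.67 and 10.74 in that strain, 11, 10.93 and 10.80 in the triple strain and 10.64, 10.60 and 10.60 in the reference strain. It stood at 0.30 ± 0.17 in the triple strain (adjusted p = 0.184), although its triple-strain arrays were all above the reference. Fitted without the 3 doubted arrays, the triple-strain value of 0.30 passed (adjusted p = 0.00326).

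Insertion of membrane proteins depends on PEX3, the membrane receptor, and PEX19, the chaperone that brings them. PEX3 read 11.37, 11.33 and 11.27 in the triple strain, 11.27, 11.36 and 11.46 in sip1 gal83, 11.36, 11.24 and 11.32 in gal83, 11.54, 11.35 and 11.39 in sip1 and 11.22, 11.32 and 11.24 in sip2. It read 11.58, 11.43 and 11.48 in sip2 gal83, 11.73, 11.58 and 11.50 in sip1 sip2 and 11.61, 11.56 and 11.76 in the reference strain. The first 5 strains lay below the reference arrays without overlap. PEX3 changed by -0.39 ± 0.069 in sip2, by -0.34 ± 0.069 in gal83 and by -0.32 ± 0.069 in the triple strain (adjusted p = 0.000288, 0.000895 and 0.00153). It stood at -0.28 ± 0.069 in sip1 gal83 and -0.22 ± 0.069 in sip1 (adjusted p = 0.0135 and 0.0169). The PEX3 call in sip1 gal83 was lost without reference replicate 3, without sip1 gal83 replicate 1 or with the compared strains fitted alone (adjusted p = 0.0758, 0.0656 and 0.0709). The PEX3 call in sip1 was lost without reference replicate 3, without sip1 replicate 2 or 3, after subtracting array medians, after quantile normalization or with the compared strains fitted alone (adjusted p = 0.0564 to 0.179). With the 3 doubted arrays left out, PEX3 stood at -0.28 in sip1 gal83 (adjusted p = 0.0186). PEX19 read 11.24, 11.22 and 11.20 in the triple strain and 11.57, 11.57 and 11.45 in the reference strain and fell by 0.31 ± 0.12 (adjusted p = 0.0446). The PEX19 call in the triple strain was lost without reference replicate 1, 2 or 3, without sip1 sip2 gal83 replicate 1, 2 or 3, after subtracting array medians or after quantile normalization (adjusted p = 0.0536 to 0.114).

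PEX11 encodes the membrane-elongating protein that drives peroxisome proliferation, and it moved both ways. It read 13.95, 13.87 and 13.93 in sip2 and 13.72, 13.83 and 13.73 in sip1, all above the reference arrays at 13.57, 13.60 and 13.62. PEX11 rose by 0.32 ± 0.044 in sip2 and by 0.17 ± 0.044 in sip1 (adjusted p = 2.94e-05 and 0.00661), and both calls held in every alternative run. In the strains that lack GAL83 and another subunit it read lower: 13.33, 13.34 and 13.36 in the triple strain, 13.43, 13.41 and 13.54 in sip2 gal83 and 13.36, 13.49 and 13.42 in sip1 gal83. PEX11 fell by 0.25 ± 0.044 in the triple strain (adjusted p = 0.000252), a call that held in every alternative run. It stood at -0.17 ± 0.044 in sip1 gal83 and -0.14 ± 0.044 in sip2 gal83 (adjusted p = 0.0174 and 0.0211). The PEX11 call in sip1 gal83 was lost without reference replicate 2 or 3, without sip1 gal83 replicate 1 or 3, after subtracting array medians or with the compared strains fitted alone (adjusted p = 0.0527 to 0.08). The PEX11 call in sip2 gal83 was lost without reference replicate 2 or 3, without sip2 gal83 replicate 1 or 2, after subtracting array medians, after quantile normalization, with array weights, without the 3 doubted arrays or with the compared strains fitted alone (adjusted p = 0.0525 to 0.338). Its value there without the doubted arrays was -0.12. Leaving out the 3 doubted arrays, the sip1 gal83 value was -0.21 (adjusted p = 0.00984). In gal83 alone PEX11 read 13.59, 13.65 and 13.75, and in sip1 sip2 13.60, 13.62 and 13.60, with changes of 0.07 ± 0.044 and 0.01 ± 0.044 (adjusted p = 0.241 and 1).

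Of the relatives of PEX11, PEX27 read 10.22, 10.48 and 10.41 in sip2, 10.59, 10.04 and 10.20 in sip1 and 9.76, 9.95 and 9.83 in the reference strain. It rose by 0.52 ± 0.15 in sip2 and by 0.43 ± 0.15 in sip1 (adjusted p = 0.0106 and 0.0318), the strains in which PEX11 rose. The PEX27 call in sip1 was lost without reference replicate 1 or 3, without sip1 replicate 1 or with the compared strains fitted alone (adjusted p = 0.0739 to 0.179). PEX25 had 0 calls, with changes between -0.16 in gal83 and 0.09 in sip1 gal83.

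PEX28 and PEX29, and PEX30, PEX31 and PEX32, encode membrane proteins that set peroxisome number and size, the last group at the endoplasmic reticulum. PEX28 was lower in 5 strains: it read 9.83, 9.98 and 9.99 in sip2, 10.10, 10.08 and 10.12 in sip1, 10.06, 9.97 and 10.16 in gal83, 9.88, 10.06 and 10.15 in sip2 gal83 and 10.14, 10.14 and 9.96 in the triple strain. The reference arrays read 10.31, 10.31 and 10.38, above all of these. PEX28 changed by -0.40 ± 0.076 in sip2, by -0.30 ± 0.076 in sip2 gal83 and by -0.27 ± 0.076 in gal83 (adjusted p = 0.000504, 0.0058 and 0.00914). It stood at -0.25 ± 0.076 in the triple strain and -0.23 ± 0.076 in sip1 (adjusted p = 0.0146 and 0.0219). The PEX28 call in sip2 was lost after quantile normalization (adjusted p = 0.0517). The PEX28 call in sip2 gal83 was lost with the compared strains fitted alone (adjusted p = 0.0752). The change in PEX28 without the doubted arrays was -0.23 there (adjusted p = 0.0476). The PEX28 call in gal83 was lost after subtracting array medians or after quantile normalization (adjusted p = 0.102 and 0.248). The PEX28 call in the triple strain was lost without reference replicate 3, without sip1 sip2 gal83 replicate 3 or after subtracting array medians (adjusted p = 0.0555, 0.0844 and 0.0604). The PEX28 call in sip1 was lost without reference replicate 3, without sip1 replicate 2, after subtracting array medians or after quantile normalization (adjusted p = 0.0594 to 0.323). PEX29 had 0 calls against the reference.

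In the triple strain the paralogs PEX31 and PEX32 moved in opposite directions. PEX31 read 9.27, 9.25 and 9.13 in the triple strain and 8.74, 8.75 and 9.09 in the reference strain, and rose by 0.36 ± 0.093 (adjusted p = 0.00626). The other arrays, all 21 of them, read between 8.29 and 9.09 for PEX31, so the reference did not overlap the triple strain. PEX32 read 10.04, 10.12 and 10.16 in the triple strain, 10.62, 10.26 and 10.42 in sip2 gal83, 10.33, 10.33 and 10.54 in sip2 and 10.71, 10.80 and 10.90 in the reference strain. PEX32 fell by 0.70 ± 0.12 in the triple strain (adjusted p = 0.000179), and the triple-strain arrays were the lowest of all 24. Both triple-strain calls held in every alternative run that tested the gene, and PEX31 was not in the run without the lowest 25% of genes. PEX32 also changed by -0.40 ± 0.12 in sip2 and by -0.37 ± 0.12 in sip2 gal83 (adjusted p = 0.0109 and 0.0216). The PEX32 call in sip2 was lost after subtracting array medians or after quantile normalization (adjusted p = 0.0596 and 0.0895). The PEX32 call in sip2 gal83 was lost without reference replicate 2 or 3, without sip2 gal83 replicate 2, after quantile normalization or with the compared strains fitted alone (adjusted p = 0.0504 to 0.0965). The change in PEX32 without the doubted arrays was -0.46 there (adjusted p = 0.0121). PEX31 was called lower in sip2, at -0.33 ± 0.093 (adjusted p = 0.00986). The PEX31 call in sip2 was lost without reference replicate 3, without sip2 replicate 2, after subtracting array medians, after quantile normalization or with the compared strains fitted alone (adjusted p = 0.0707 to 0.52). Quantile normalization turned that value to 0.08. PEX30, at -0.17 ± 0.065 in gal83, passed narrowly (adjusted p = 0.0421). The PEX30 call in gal83 was lost without reference replicate 1, 2 or 3, without gal83 replicate 1 or 3, after subtracting array medians, after quantile normalization, without the lowest 25% of genes, with trended, robust variances or with the compared strains fitted alone (adjusted p = 0.0501 to 0.55).

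INP1 retains peroxisomes in the mother cell, and INP2 links them to the myosin that carries them into the bud. INP1 read 9.36, 9.19 and 9.11 in the triple strain, 8.92, 9.49 and 9.15 in sip2 gal83 and 9.45, 9.60 and 9.86 in the reference strain, and was called lower in both strains, at -0.41 ± 0.15 and -0.45 ± 0.15 (adjusted p = 0.0379 and 0.0267). The INP1 call in the triple strain was lost without reference replicate 2 or 3, without sip1 sip2 gal83 replicate 2 or 3, after subtracting array medians or after quantile normalization (adjusted p = 0.0665 to 0.169). The INP1 call in sip2 gal83 was lost without reference replicate 2 or 3, without sip2 gal83 replicate 1 or 3, after subtracting array medians, after quantile normalization, without the 3 doubted arrays or with the compared strains fitted alone (adjusted p = 0.0519 to 0.205). Its value there without the doubted arrays was -0.32. INP2 read 8.54, 9.31 and 9.38 in sip2 gal83, 9.32, 9.14 and 8.98 in sip1 and 9.43, 9.45 and 9.76 in the reference strain. INP2 was called lower there, at -0.47 ± 0.16 and -0.40 ± 0.16 (adjusted p = 0.0277 and 0.0498), but its lowest value, 8.54, came from the doubted library sip2 gal83 replicate 1. The INP2 call in sip2 gal83 was lost without reference replicate 3, without sip2 gal83 replicate 1, after subtracting array medians, after quantile normalization, with array weights, without the 3 doubted arrays or with the compared strains fitted alone (adjusted p = 0.0508 to 0.279). Its value there without the doubted arrays was -0.20. The INP2 call in sip1 was lost without reference replicate 1, 2 or 3, without sip1 replicate 2 or 3, after subtracting array medians, after quantile normalization, with the replicate block or with the compared strains fitted alone (adjusted p = 0.0545 to 0.445).

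Each deletion was also averaged over all strains, as the mean of the 4 strains that lack the gene minus the mean of the 4 that keep it (12 arrays against 12). By this measure 15 of the 31 genes were lower without GAL83 and 2 were higher (48.4% and 6.45%), beside 19.7% lower and 19.6% higher over all genes. Loss of SIP1 gave 2 lower and 2 higher genes (6.45% each, beside 7.43% and 17.6%), and loss of SIP2 gave 1 lower and 2 higher (3.23% and 6.45%, beside 7.43% and 5.98%). A small count here does not mean that few genes moved, because opposite changes cancel in the average. Against the reference 9 genes fell in sip1 and 11 in sip2. Loss of SIP1 moved PEX18 by -1.12 from the reference strain and by 1.06 from sip2, and PCS60 by -0.37 and 0.43. Loss of SIP2 moved PEX18 by -0.92 from the reference strain and by 1.26 from sip1. The strains without GAL83 averaged 6.96 for PEX18 and 12.29 for PCS60, against 7.99 and 13.05 in the strains that keep it. The average GAL83 effect was -1.03 ± 0.14 for PEX18, -0.77 ± 0.051 for PCS60, -0.38 ± 0.10 for PEX17 and -0.31 ± 0.048 for LPX1 (adjusted p = 2e-05, 6.07e-09, 0.00685 and 6.63e-05). It was -0.25 ± 0.022 for PEX11, -0.23 ± 0.041 for PEX8, -0.19 ± 0.026 for ANT1 and -0.18 ± 0.021 for PEX2 (adjusted p = 1.31e-07, 0.000312, 1.87e-05 and 4.31e-06). Smaller effects were -0.22 ± 0.059 for PEX32, -0.15 ± 0.039 for PEX7 and -0.11 ± 0.034 for PEX3 (adjusted p = 0.00565, 0.00576 and 0.0165). PEX13 was higher, by 0.20 ± 0.060 (adjusted p = 0.0142). These 12 calls held in every alternative run that tested the gene. INP1, at -0.23 ± 0.075 (adjusted p = 0.0195), did not pass without the 3 doubted arrays (adjusted p = 0.0632). PEX22, PEX6, PEX28 and PEX31 passed narrowly (adjusted p = 0.0444, 0.0462, 0.0424 and 0.0486) and ended in 22, 23, 18 and 22 of the alternatives, most of which leave out 1 array (highest adjusted p = 0.0832, 0.0865, 0.0821 and 0.0892). The PEX3 and PEX6 averages for GAL83 join opposite changes. Loss of GAL83 moved PEX3 by -0.34 from the reference strain but by 0.24 from sip2. It moved PEX6 by -0.35 and 0.21. PEX3 means were 11.36 in sip1 gal83 against 11.42 in sip1, and 11.32 in the triple strain against 11.60 in sip1 sip2. The 12 arrays labelled as lacking GAL83 overlapped the 12 that keep it for each of the 17 called genes. For PCS60 the overlap came from the library labelled sip1 gal83 replicate 2 alone, at 12.97, and without it the other 11 arrays lay below all 12, while the other 16 genes still overlapped. The SIP1 calls were PEX31 and PEX7 at 0.17 ± 0.047 and 0.11 ± 0.039, PEX11 at -0.13 ± 0.022 and PXA2 at -0.20 ± 0.045 (adjusted p = 0.0151, 0.0477, 0.000615 and 0.00382). The PEX7 call was lost in 21 of 32 alternatives, both other scalings among them (adjusted p up to 0.135). The other 3 SIP1 calls held in all that tested the gene. The PEX11 average joins opposite changes. Loss of SIP1 moved PEX11 by 0.17 from the reference strain, by -0.31 from sip2 and by -0.24 from gal83. Its mean was 13.34 in the triple strain against 13.46 in sip2 gal83. For PEX31 the means were 9.22 in the triple strain against 8.76 in sip2 gal83, and 8.78 in sip1 sip2 against 8.53 in sip2. They were 8.75 in sip1 gal83 against 8.70 in gal83, and 8.77 in sip1 against 8.86 in the reference strain. The SIP2 calls were ANT1 at 0.09 ± 0.026, LPX1 at 0.17 ± 0.048 and PEX32 at -0.19 ± 0.059 (adjusted p = 0.0245, 0.0305 and 0.0402). ANT1 held in every alternative run, LPX1 was lost in 9 of 32, each leaving out 1 array (adjusted p up to 0.0577), and PEX32 in 16 of 32, including the one without the 3 doubted arrays (adjusted p up to 0.0765). The SIP2 count was 1 without reference replicate 2, sip2 replicate 1, gal83 replicate 1, sip1 gal83 replicate 1 or triple-strain replicate 1 or 2, and 5 without sip2 gal83 replicate 1 or 2.

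**Figure D5:**
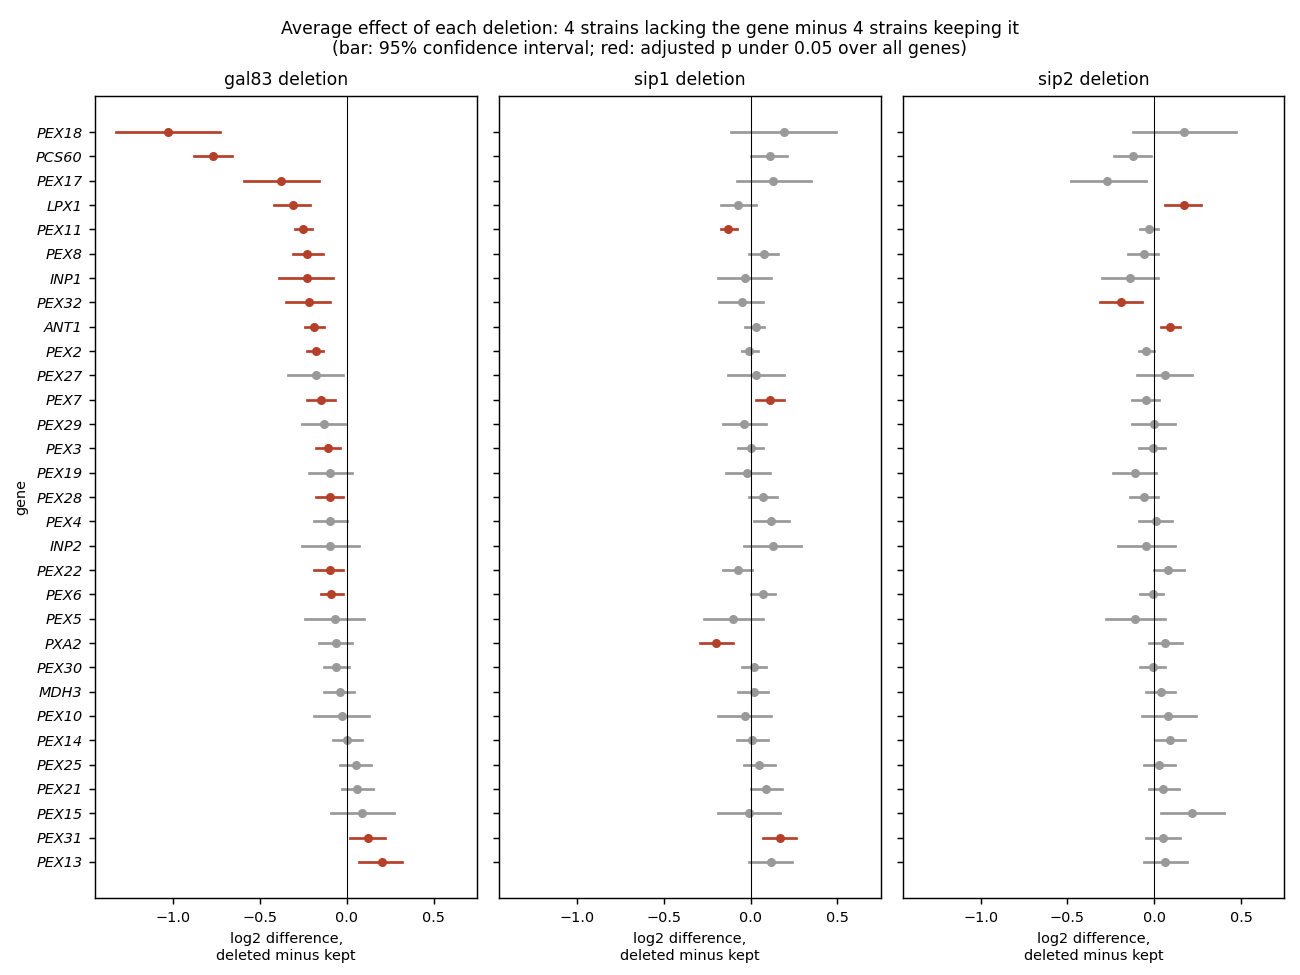
Average log2 effect of deleting GAL83, SIP1 or SIP2 on each of the 31 genes (rows, ordered by the GAL83 effect), as 4 strains lacking the gene minus 4 keeping it, with 95% confidence intervals. Red marks an adjusted p under 0.05. Most red points stand in the GAL83 panel, left of 0.

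Set against the mean of the sip1 and sip2 strains, with no reference array in the difference, the gal83 strain had 5 of the 31 genes lower and 0 higher (16.1% lower, beside 1.5% lower and 2.24% higher over all genes). They were PCS60 at -0.65 ± 0.089, ANT1 at -0.28 ± 0.045, LPX1 at -0.40 ± 0.084, PEX11 at -0.18 ± 0.038 and PEX18 at -1.0 ± 0.24 (adjusted p = 0.000163, 0.000694, 0.008, 0.0112 and 0.0267). PCS60 and ANT1 passed in every alternative run. The PEX18 call was lost without sip1 replicate 1, without sip2 replicate 1 or 3, without gal83 replicate 1 or 3 or with the compared strains fitted alone (adjusted p = 0.0577 to 0.142). The PEX11 call was lost without gal83 replicate 1 or 2 or with the compared strains fitted alone (adjusted p = 0.13, 0.0587 and 0.112). The LPX1 call was lost without gal83 replicate 1 or 2 (adjusted p = 0.0816 and 0.0662). PEX11 had risen in sip1 and sip2 against the reference strain, as given above. Without gal83 replicate 1 or 2 the number called was 2 and 3. PEX2, PEX3, PEX8, PEX21 and PEX28, which fell in gal83, sip1 and sip2 alike, differed by 0.02, -0.04, -0.12, 0.04 and 0.05 between these strains, and 0 of them passed.

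The sip1 sip2 strain differed from the single deletions it combines for 14 of these genes. Against the mean of sip1 and sip2, 13 of the 31 genes were higher and 1 was lower (41.9% and 3.23%, beside 29.8% and 11.1% of all genes), with no reference array in the difference. PEX18 read 8.81, 8.91 and 8.08 in sip1 sip2 and was higher by 1.16 ± 0.24 (adjusted p = 0.00119). PEX4 was higher by 0.48 ± 0.080, PCS60 by 0.46 ± 0.089, PEX8 by 0.34 ± 0.071, PEX28 by 0.31 ± 0.066 and PEX2 by 0.24 ± 0.037 (adjusted p = 0.000171, 0.000529, 0.00109, 0.00113 and 8.1e-05). The others were PEX7, PEX21, PEX22, PEX6, PEX3, INP2 and ANT1, higher by between 0.16 (ANT1) and 0.43 (INP2) (adjusted p = 0.0198, 0.00254, 0.0178, 0.00793, 0.00199, 0.0171 and 0.00767). Of these, PEX21 and PEX3 held in every alternative run. PEX7, PEX22, PEX6 and ANT1 were lost under both other scalings and INP2 under quantile normalization (adjusted p up to 0.168, 0.384, 0.153, 0.211 and 0.162). Leaving out sip1 sip2 replicate 1 (PEX7, PEX22), 2 (PEX22) or 3 (PEX7, INP2) also ended a call (adjusted p = 0.0865, 0.0532, 0.0909, 0.0612 and 0.0569). PEX11 was lower, at -0.23 ± 0.038 (adjusted p = 0.000134). With array medians equalised 9 of the 31 stood higher and 3 lower, and with quantile normalization 8 and 3, beside 20.3% and 23.4% and, for quantiles, 18.4% and 19.6% of all genes. Fitted without the 3 doubted arrays, among them the library labelled sip1 sip2 replicate 3 with SIP2 signal, 16 were higher and 1 lower, beside 31.5% and 10.3%. Against the reference itself the largest change of a member in sip1 sip2 was INP1 at -0.22 ± 0.15 (95% interval -0.54 to 0.10).

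Whether 2 deletions added up was tested as an interaction, the change in the double strain minus the sum of both single changes. For SIP1 with SIP2, 15 of the 31 genes stood above the sum and 2 below it, beside 38.9% and 13.4% of all genes (52.4% in all). For SIP1 with GAL83 there were 11 above and 4 below, beside 36.6% and 14.6% (51.3% in all). For SIP2 with GAL83 there were 11 above and 2 below, beside 33.9% and 13.9% (47.8% in all). The 3 contrasts share the single-deletion and reference arrays. With array medians subtracted the splits became 9 above and 3 below for SIP1 with SIP2, 4 and 4 for SIP1 with GAL83, and 4 and 3 for SIP2 with GAL83, beside 24.9% and 29.2%, 23.5% and 29.5%, and 22.3% and 27.8% of all genes. The doubted arrays lie in the double strains, and with them left out 15 and 2, 10 and 4, and 10 and 2 passed, beside 42% and 14.7%, 38.9% and 17.1%, and 37.6% and 16.1%.

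Other genes of the peroxisome and its control were counted by list. Of 13 core β-oxidation genes, 6 fell and 0 rose in the triple strain, 5 fell and 0 rose in sip1 gal83, 2 fell and 0 rose in sip2 gal83, and 3 fell and 1 rose in gal83, where the percentages called over all genes are those given above. POT1, the peroxisomal thiolase, changed by -1.01 ± 0.14 in the triple strain and ECI1, an enoyl-CoA isomerase, by -0.99 ± 0.15 in sip1 gal83 (adjusted p = 2.78e-05 and 0.000542). IDP3, the peroxisomal isocitrate dehydrogenase, fell by 0.85 ± 0.13 in the triple strain (adjusted p = 6.83e-05). In sip1 2 of the 13 rose and 0 fell, and in sip2 1 rose and 0 fell. Of 8 other peroxisomal enzymes, 2 fell and 2 rose in the triple strain, 5 fell and 0 rose in sip2 gal83, 2 fell and 1 rose in sip1 gal83, 4 fell and 1 rose in gal83, 3 fell and 1 rose in sip2, and 1 fell and 2 rose in sip1. MLS1, malate synthase of the glyoxylate cycle, changed by -6.12 ± 0.55 in the triple strain, -4.34 ± 0.55 in sip2 gal83, -2.80 ± 0.55 in sip1 gal83 and -3.35 ± 0.55 in gal83 (adjusted p = 2.3e-07, 5.89e-05, 0.00379 and 0.000172). With the 3 doubted arrays left out, MLS1 stood at -4.23 in sip2 gal83 and -3.85 in sip1 gal83 (adjusted p = 8.56e-08 and 2.03e-07). CIT2, the peroxisomal citrate synthase, rose by 0.45 ± 0.061 in sip1 gal83 (adjusted p = 0.000299). Of 9 genes for division, pexophagy and contacts, 3 fell and 2 rose in the triple strain, 1 fell and 1 rose in sip2 gal83, 0 moved in sip1 gal83, 3 fell and 1 rose in gal83, 2 fell and 1 rose in sip2, and 1 fell and 1 rose in sip1. For both lists the percentages over all genes are again those given above. The fallen share of the 9 was 33.3% in the triple strain (against 23.5%) and 33.3% in gal83 (against 30.6%). It was 22.2% in sip2 (against 32.1%) and 11.1% in sip1 (against 29.1%). ATG1, the kinase that starts autophagy, moved both ways: it rose by 0.69 ± 0.16 in gal83, 0.57 ± 0.16 in sip2 and 0.56 ± 0.16 in sip1 (adjusted p = 0.00219, 0.00779 and 0.00955). In the triple strain ATG1 fell by 0.49 ± 0.16 (adjusted p = 0.0191). ATG36, the pexophagy receptor, changed by -0.58 ± 0.10 in the triple strain and by -0.54 ± 0.10 in sip2 gal83 (adjusted p = 0.00023 and 0.000793). PEX34, a further peroxin, fell by 0.40 ± 0.078 in the triple strain (adjusted p = 0.000636) and rose by 0.37 ± 0.078 in sip1, 0.31 ± 0.078 in sip2 and 0.28 ± 0.078 in gal83 (adjusted p = 0.00137, 0.00463 and 0.00855). PEX34 was also called lower in sip2 gal83, at -0.25, and stood at -0.31 there without the 3 doubted arrays (adjusted p = 0.0078). Leaving out the 3 doubted arrays, 8 β-oxidation genes fell and 1 rose in sip1 gal83, 3 fell in sip2 gal83 and 6 fell in the triple strain, with ECI1 at -1.19 and CIT2 at 0.48 in sip1 gal83 and ATG36 at -0.45 in sip2 gal83 (adjusted p = 1.93e-05, 5.61e-05 and 0.00353).

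Among 9 regulators of these genes, the oleate factors OAF1 and PIP2 stood at -0.09 ± 0.12 and -0.33 ± 0.13 in the triple strain (adjusted p = 0.607 and 0.0461). ADR1, encoding an activator of peroxisomal and alcohol-use genes, stood at -0.03 ± 0.16 (adjusted p = 0.905). In that strain 3 of the 9 fell (33.3%, against 23.5% of all genes) and 0 rose (against 14.9%). The fallen ones were PIP2, SPT23 (-0.22 ± 0.083) and SNF1 (-0.22 ± 0.068), the kinase subunit itself (adjusted p for SPT23 and SNF1 = 0.0426 and 0.0155). In sip2 3 of the 9 fell as well (33.3%, against 32.1% of all genes) and 0 rose. In sip1 and in sip2 gal83 1 fell and 0 rose, in gal83 0 fell and 1 rose, and in sip1 gal83 and sip1 sip2 0 moved. ADR1 rose in gal83, by 0.42 ± 0.16 (adjusted p = 0.0431). Without the 3 doubted arrays PIP2 stood at -0.29 in sip1, -0.26 in sip2, -0.29 in gal83 and -0.23 in sip1 gal83 (adjusted p = 0.000607, 0.00123, 0.000575 and 0.0205). It did not pass in sip2 gal83 or sip1 sip2 (adjusted p = 0.974 and 0.482). OAF1 then stood at -0.31 in sip2 and -0.25 in gal83 (adjusted p = 0.0127 and 0.0389) and did not pass in the other strains. The message levels of these factors are not a measure of their activity.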

How the data were processed

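Transcript levels were read on 24 single-colour Affymetrix arrays, 3 biological replicates of each of 8 yeast strains. The deposited values are log2 signals per probe set, made by the authors with RMA (affy), as the submitters' processing notes name it; versions, and whether all arrays were normalized together, are not given in the sources used here. Of 5716 probe sets, 5498 name 1 gene in the platform annotation (12 symbols were updated through RefSeq gene identifiers), 218 name none, and the probe set with the highest mean stood for each of 5449 genes. The values were not normalized again. One limma 3.58.1 fit (R 4.3.3) estimated 8 strain means, and contrasts were tested with eBayes and Benjamini-Hochberg adjustment over all genes; the test was checked on simulated data. The number of arrays limits the precision. By the rule for named genes, values on every array are given for the called members with the largest changes, up to 8 each way per comparison, and for up to 6 with the widest strain means; all 31 are accounted for, and up to 3 called genes with the largest changes stand for each related list. In the triple strain OAF1 and ADR1 did not pass, and they were named there after their values were seen. The members, lists and tests were chosen with earlier results of these data known, and the interactions were added after the data were seen. Same-numbered replicates of different strains had a median correlation of deviations of 0.036, from -0.352 to 0.333, so the numbers were not taken to pair arrays. Alternatives changed the scaling, the filter on low values, the variance model, the arrays used and the replicate block.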

Additional observations from a re-analysis of the deposited data

Results flagged for a closer look

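A deletion sometimes moved a gene one way in the reference background and the opposite way in a strain already lacking a second subunit, with every array of the strains compared on its own side. These genes also passed the test of the difference (an interaction, the double strain's change beyond the sum of the single changes, by limma with adjusted p under 0.05 over all genes). The interactions were added after the data were seen, and 52.4%, 51.3% and 47.8% of all genes passed for SIP1 with SIP2, SIP1 with GAL83 and SIP2 with GAL83. The whole pattern, opposite movement and a passing test, was met by 13 of the 31 genes for SIP1 with SIP2 (41.9%), beside 39.4% of all genes. It was met by 9 for SIP1 with GAL83 (29%), beside 36%, and by 4 for SIP2 with GAL83 (12.9%), beside 24.4%. These shares are near or below those of all genes.

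For SIP1 with SIP2 the interaction was 2.18 for PEX18, whose level changed by -1.12 on loss of SIP1 where SIP2 was present and by 1.06 where SIP2 was already deleted. It was 0.81 for INP2, 0.80 for PCS60, 0.77 for PEX4, 0.70 for PEX21, 0.66 for PEX8 and 0.63 for PEX28. PEX3 and PEX32 gave 0.57 each, PEX2 0.44, PEX6 0.42 and ANT1 0.24, and PEX11 gave -0.48. For PEX4 and INP2 the test did not pass after quantile normalization (adjusted p = 0.0872 and 0.197), and for PEX32, PEX6 and ANT1 it passed under neither other scaling.

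For SIP1 with GAL83 the interaction was 0.87 for PCS60, 0.71 for PEX21, 0.67 for INP2, 0.55 for PEX8, 0.46 for PEX4 and 0.35 for ANT1. It was -0.98 for PEX5, -0.78 for PEX27 and -0.41 for PEX11. The PEX4 and INP2 values passed under neither other scaling, and the ANT1 value did not pass after subtracting array medians (adjusted p = 0.0935).

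For SIP2 with GAL83 the interaction was 0.58 for PEX3 and 0.57 for PEX6, and it was -0.91 for PEX27 and -0.53 for PEX11. These 4 passed under both other scalings and without the 3 doubted arrays.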

How the results depend on the processing

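Of the 31 genes, the number called changed by more than 1.5 times in the following alternatives. Subtracting array medians gave 7 for sip1 and 6 for sip2, and for the interactions 8 for SIP1 with GAL83 and 7 for SIP2 with GAL83. Quantile normalization gave 6 for sip2, 11 for the interaction of SIP1 with SIP2 and 6 for that of SIP2 with GAL83. Array weights gave 13 for sip1 gal83 and 6 for the average SIP2 effect. The compared strains fitted alone, with fewer arrays, gave 4 for sip1 gal83, 3 for sip2 gal83 and 3 for gal83 against the mean of sip1 and sip2. Quantile normalization reversed PEX31 in sip1 to 0.23 and in sip2 to 0.08, and PEX4 in sip2 to 0.07; the cause was not tested. Leaving out each array in turn gave 9 to 15 calls for the triple strain, 5 to 12 for sip2 gal83, 4 to 8 for sip1 gal83, 10 to 12 for gal83, 10 to 13 for sip2, 7 to 10 for sip1 and 0 for sip1 sip2. It gave 13 to 18 for the average GAL83 effect, 3 to 6 for SIP1 and 1 to 5 for SIP2, 2 to 5 for gal83 and 13 to 16 for sip1 sip2 against the mean of sip1 and sip2, 15 to 18, 10 to 17 and 9 to 15 for the interactions, and 21 to 24 for the F test. The other alternatives (the lowest 25% of genes left out, all probe sets, trended and robust variances, and the 3 doubted arrays left out) kept each count within 1.5 times. The replicate numbers did not pair the arrays; with the replicate block 14 genes were called for the average GAL83 effect against 17 without it, 11 against 12 in sip1, 3 against 4 for the average SIP1 effect, and the other counts did not move. Under the block INP2 in sip1, PEX21 in sip2 gal83, PEX7 for the average SIP1 effect, and PEX22, PEX6 and PEX28 for the average GAL83 effect no longer passed, and PEX15 in sip2 gal83 passed (adjusted p = 0.0492).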
